A study of Mus musculus with 2 samples.

Results

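Interferon gamma (IFN-γ), its 2 receptor chains and 3 of its target genes were followed through libraries, described by the study as splenocytes, of mice infected with lymphocytic choriomeningitis virus clone 13 (LCMV-cl13). The members were chosen by name: Ifng, Ifngr1, Ifngr2, Cxcl9, Cxcl10 and Irf1, which are 6 of the 32285 genes counted. Their unique molecular identifiers (UMIs, each standing for 1 captured transcript) were summed over barcodes that fell in 6 gates. The CD8 T gate took barcodes with Cd3e and Cd8b1, the CD4 T gate Cd3e and Cd4, the NK gate Ncr1 without Cd3e, and the B gate Cd79a and Ms4a1, each with at least 1 UMI. The monocyte or macrophage gate asked for at least 5 UMIs of Lyz2, and the neutrophil gate for at least 20 UMIs of S100a8 and S100a9 together. A barcode could fall in several gates.

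IFN-γ is a cytokine secreted mainly by activated T cells and natural killer (NK) cells. It binds a receptor made of the ligand-binding chain IFNGR1 and the accessory chain IFNGR2, which pass the signal through JAK1 and JAK2. Genes with gamma-activated sequences (GAS) respond, among them Irf1, a transcription factor that acts on further interferon-responsive genes. Cxcl9 and Cxcl10 encode chemokines that attract cells bearing CXCR3, mostly effector T cells and NK cells. Cxcl10 also responds to type I interferon, so it is not a reading of IFN-γ alone.

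PEP-WT mice carried the common Ptpn22 allele, and PEP-619WW mice were homozygous for a knock-in, made with CRISPR/Cas9 in C57BL/6 mice, of tryptophan in place of arginine at residue 619 of the tyrosine phosphatase PEP. Mice were 6 to 12 weeks old and matched for age and sex, and all were infected intravenously with 1000000 PFU of LCMV-cl13. By the study's methods, at 8 days post infection the spleens of 4 to 5 mice were pooled by genotype, and live CD45+ cells were sorted and sequenced with the 10x Genomics 3′ chemistry. Each genotype has 2 deposited count tables, called run 1 and run 2 here, whose relation is not given, so each run holds 1 library per genotype and no difference between genotypes has a replicate. The barcode numbers and median genes per barcode that the study states for its 2 genotypes are those of run 2. No test across mice is therefore possible, and every interval below covers counting error only. The sample labels name liver, the Jurkat cell line and tumor-infiltrating cells instead of spleen, and they also describe a peptide restimulation without saying whether the sequenced cells received it. The 3′ tags do not read codon 619, so the genotype of a library could not be checked.

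The libraries held 14821 barcodes for PEP-WT and 8576 for PEP-619WW in run 1 and 9539 and 11029 in run 2, with 55504449 to 77916082 UMIs each. Between 19 and 49 barcode sequences were shared by any pair of libraries. Run 1 had the make-up of a spleen, with 46.8% and 36.7% of barcodes in the B gate. Run 2 goes against a spleen: the B gate held 0.021% and 4.56% of barcodes, the monocyte or macrophage gate 68.0% and 44.6%, and 274 PEP-WT and 27 PEP-619WW barcodes held at least 3 of 6 melanocytic genes, against 0 in run 1. In run 2 PEP-WT only 28, 12, 2 and 2 barcodes met the CD8 T, CD4 T, NK and B gates, so for lymphocytes the genotypes are compared in run 1 alone. The marker genes of each gate, which the gates did not use, were highest in a T gate for every T marker in all 4 libraries, though Cd3d, Cd3g, Trac and Lck, which all T cells use, were highest in either T gate. Every NK and B marker was highest in its own gate outside run 2 PEP-WT, where 4 of 6 B markers were at 0. Of 7 monocyte or macrophage markers, 4 to 7 were highest in that gate, and Fn1, Ccr2 and Ly6c2 were the exceptions, highest in the neutrophil, NK or CD8 T gate. Gates overlapped: in run 1, 554 PEP-WT and 562 PEP-619WW barcodes met both myeloid gates. For this reason values are also given for barcodes that met 1 gate and no other.

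The promoters of the 3 target genes are shown because Cxcl9 and Cxcl10 were detected together in the same barcodes, and Irf1 because it is a direct target. Cxcl9 (chr5:92321331-92328079) and Cxcl10 (chr5:92346638-92348889) lie on the minus strand with 18558 bases between their annotations, and Irf1 is at chr11:53770014-53778374. Ifng (chr10:118441046-118445894), Ifngr1 (chr10:19591949-19610229) and Ifngr2 (chr16:91547059-91564007) are on other chromosomes or far away. Each line gives the 250 bases before a RefSeq start of transcription on GRCm38.p6, 5′ to 3′, from chr5:92328080-92328329 (minus strand), chr5:92348890-92349139 (minus strand) and chr11:53769764-53770013 (plus strand), with the motif letters in capitals. Irf1 has another RefSeq start, whose window (chr11:53770223-53770472) is not shown.
Cxcl9: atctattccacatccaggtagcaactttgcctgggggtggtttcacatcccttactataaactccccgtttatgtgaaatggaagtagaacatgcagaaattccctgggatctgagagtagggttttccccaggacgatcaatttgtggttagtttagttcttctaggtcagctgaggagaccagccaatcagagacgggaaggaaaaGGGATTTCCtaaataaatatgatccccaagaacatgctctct
Cxcl10: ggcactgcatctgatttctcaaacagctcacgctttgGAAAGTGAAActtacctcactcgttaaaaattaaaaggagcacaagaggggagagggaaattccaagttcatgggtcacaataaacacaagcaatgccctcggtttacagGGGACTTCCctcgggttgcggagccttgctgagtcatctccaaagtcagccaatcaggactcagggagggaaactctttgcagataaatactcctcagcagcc
Irf1: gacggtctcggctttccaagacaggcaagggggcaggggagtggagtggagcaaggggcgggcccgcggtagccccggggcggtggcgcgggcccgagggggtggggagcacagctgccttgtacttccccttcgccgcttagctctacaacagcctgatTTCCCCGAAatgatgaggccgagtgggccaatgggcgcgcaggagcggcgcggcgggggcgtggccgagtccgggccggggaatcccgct
Both strands were searched for GAS (TTCNNNGAA), for an interferon-stimulated response element (ISRE, GAAA and GAAA with any 2 bases between) and for a κB site (GGGANTTCC), none of which overlapped in these windows. Other forms of the κB site were not searched. The capitals mark a κB match 42 to 34 bases before the Cxcl9 start, an ISRE match 213 to 204 bases and a κB match 103 to 95 bases before the Cxcl10 start, and a GAS match 90 to 82 bases before the shown Irf1 start. Ifng held a GAS match 249 to 241 bases before its start, and the windows of Ifngr1 and Ifngr2 held none of the 3. Of 32851 RefSeq promoters of the same length, 7.02% held GAS, 2.98% ISRE and 1.43% κB letters, so a match is a description of the window and not a bound site.

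The CD8 T gate had the highest Ifng level from summed UMIs in all 4 libraries. As UMIs per 1000000 UMIs of the gate (CPM), Ifng reached 190 (95% Poisson interval 183 to 197) in PEP-WT and 239 (231 to 248) in PEP-619WW in run 1. In run 2 it was 172 (127 to 229) in the 28 PEP-WT barcodes and 61.4 (53.0 to 70.7) in PEP-619WW. Next in order came the CD4 T gate (105 and 148 CPM in run 1) and the NK gate (117 and 90.9 CPM), whose intervals overlapped in both libraries. In run 2 PEP-619WW the NK gate stood at 46.3 CPM, overlapping the CD8 T gate, and the CD4 T gate at 17.7 CPM. When each barcode had the same weight, the NK gate came first in that library, at 84.4 against 50.9 CPM.

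**Figure D1:**
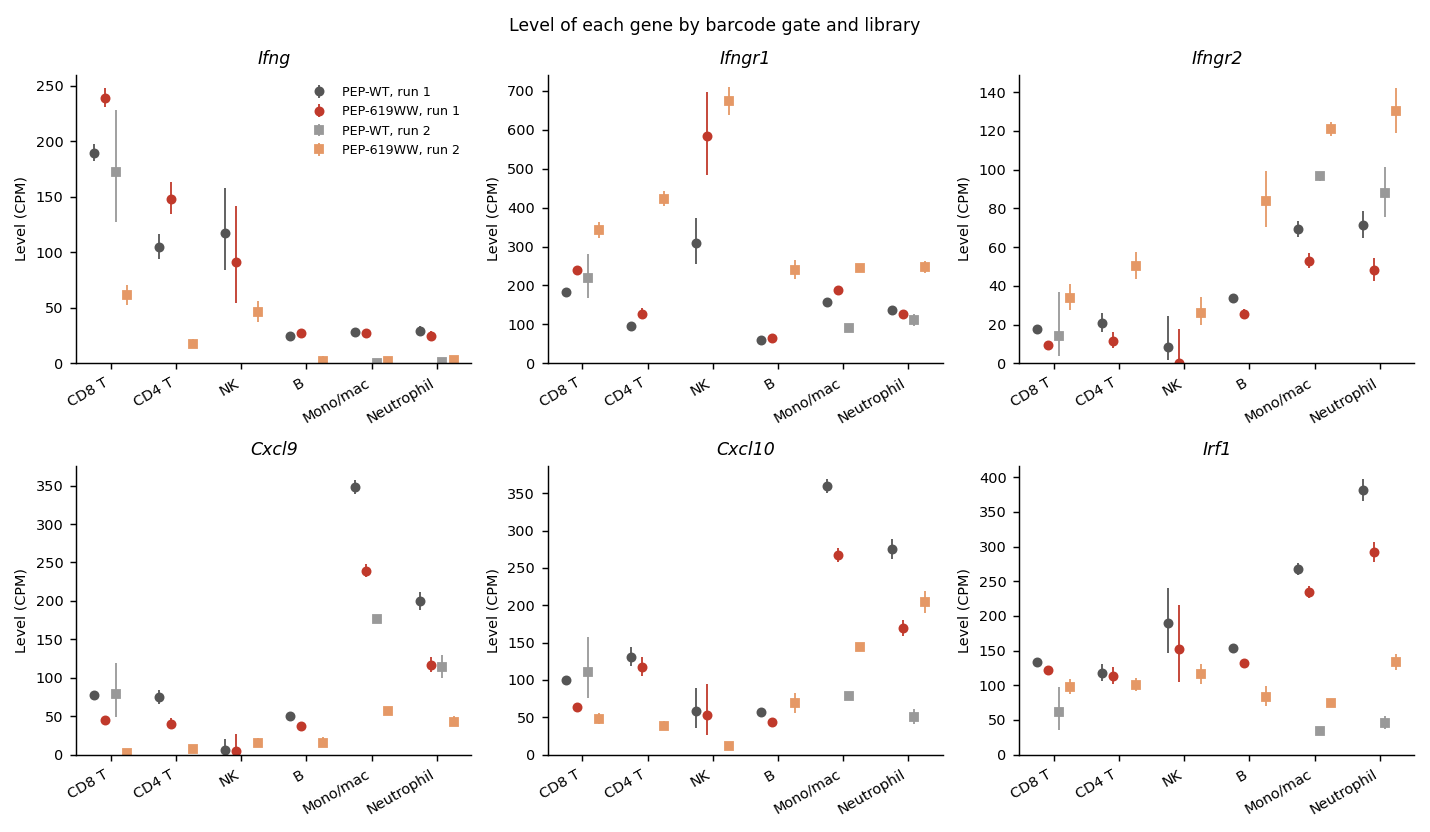
Level of each member in each gate, one panel per gene, for the 4 libraries (CPM of summed UMIs, linear axis, bars are 95% Poisson intervals for counting error only). Ifng from summed UMIs is highest in the CD8 T gate, Ifngr1 in the NK gate in 3 of 4 libraries, and Ifngr2, Cxcl9, Cxcl10 and Irf1 in the myeloid gates of run 1.

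In run 1, 85.0% to 98.1% of the Ifng UMIs in the B and myeloid gates sat in barcodes that also met a second gate. The B gate showed 25.0 and 27.04 CPM of Ifng, of which 93.7% and 91.9% lay in barcodes of several gates, and B barcodes of no other gate held 2.01 and 2.97 CPM. The monocyte or macrophage gate behaved alike, from 28.7 and 27.1 CPM in the whole gate to 8.03 and 6.61 CPM in barcodes of that gate alone. The 260 PEP-WT barcodes that met the B gate and a T gate carried 825 of the 890 Ifng UMIs of the B gate. Whether such barcodes hold more than 1 cell was not tested.

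Across whole run 1 libraries, barcodes of the CD8 T gate alone carried 44.6% of Ifng UMIs in PEP-WT and 58.8% in PEP-619WW, barcodes of several gates 35.7% and 26.8%, and barcodes of no gate 9.41% and 5.55%. In run 2 PEP-619WW the CD8 T gate alone carried 29.0% of 490 UMIs, barcodes of no gate 25.3%, the NK gate alone 17.8% and barcodes of several gates 14.5%. Run 2 PEP-WT held 62 Ifng UMIs in all, or 0.879 CPM, the lowest of the 4 libraries. Run 1 PEP-WT stood at 43.4 CPM over all barcodes, run 1 PEP-619WW at 63.2 CPM and run 2 PEP-619WW at 8.83 CPM.

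**Figure D2:**
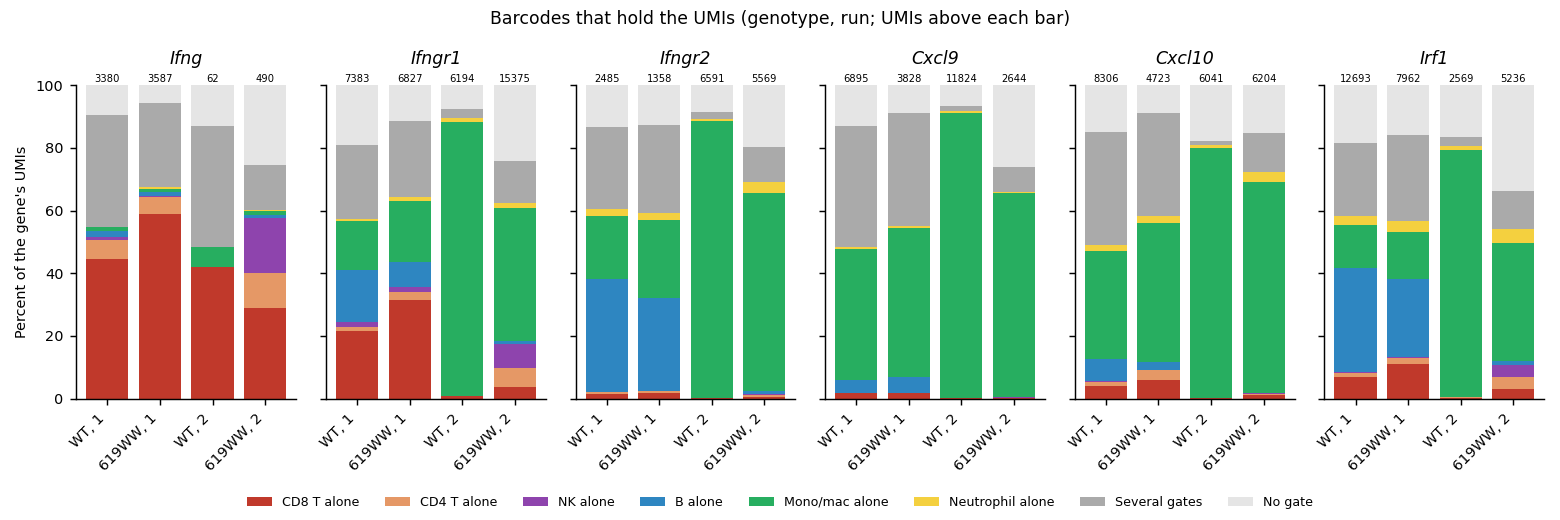
Share of each member's UMIs (percent of the gene's UMIs in a library) by the gate its barcodes met, with barcodes of several gates and of no gate apart. In run 1 Ifng divides mainly between CD8 T barcodes and barcodes of several gates, in run 2 PEP-619WW barcodes of no gate come second, and in run 2 most Cxcl9, 91.1% for PEP-WT and 65.4% for PEP-619WW, comes from monocyte or macrophage barcodes.

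Among CD8 T barcodes of no other gate in run 1, 32.8% (Clopper-Pearson 95% interval 30.04 to 35.7) of the 1081 barcodes held Ifng in PEP-WT, against 50.9% (47.2 to 54.6) of 729 in PEP-619WW. B barcodes of no other gate, which should lack the gene, gave 0.561% and 1.24%. The median depth of the whole CD8 T gate was 6038 UMIs in PEP-WT and 8660 in PEP-619WW, and that of the B gate 2837 and 3495.5. After each barcode was thinned to 1000 UMIs, the CD8 T shares were 10.9% (9.14 to 12.95) and 16.2% (13.5 to 19.1), and the intervals still did not overlap. In CD4 T barcodes of no other gate the shares were 49 of 245 and 23.4%, or 8.68% and 6.25% after thinning, with overlapping intervals.

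A small number of barcodes held most of the transcript. In CD8 T barcodes of no other gate, 37 PEP-WT barcodes (3.42%) with at least 10 Ifng UMIs held 49.4% of the UMIs, and 63 PEP-619WW barcodes (8.64%) held 61.3%. The highest single such barcode had 52 and 71 UMIs. Over all run 1 barcodes with the gene, the top 10% held 55.0% and 53.7% of Ifng UMIs, against 30.6% and 34.4% for Ifngr1 and 22.0% and 22.8% for Ifngr2, which spread more evenly.

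Ifng-positive CD8 T barcodes carried more Ccl3 and Ccl4 than Ifng-negative ones of the same library. They are a description of 355 positive and 726 negative PEP-WT barcodes and 371 and 358 PEP-619WW barcodes of run 1, in no other gate, and positive barcodes were deeper (median 7096 against 4038.5 UMIs, and 9017 against 6132.5). Ccl3, an inflammatory chemokine made by activated T cells, reached 519 CPM in positive and 55.1 CPM in negative PEP-WT barcodes, a 9.41-fold difference, and 550 and 50.5 CPM in PEP-619WW (10.9-fold). Its companion Ccl4 was 6.23-fold and 11.1-fold higher. After thinning to 1000 UMIs, 24.5% of positive and 5.39% of negative PEP-WT barcodes still held Ccl3.

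Other genes read in these barcodes were mixed. Gzmb, which encodes granzyme B, was 2.22-fold and 1.70-fold higher in positive barcodes, and Prf1, the pore-forming perforin, 2.62-fold and 1.76-fold. Pdcd1, the inhibitory receptor PD-1, was 2.45-fold and 2.46-fold higher. Il7r, the receptor chain of resting and memory T cells, went the other way, with 22.8 CPM in positive against 162 CPM in negative PEP-WT barcodes and 33.3 against 106 CPM in PEP-619WW, 7.10-fold and 3.19-fold higher in negative barcodes. Ccl5 differed little, at 0.943-fold and 0.861-fold, and Tbx21, which encodes T-bet, at 1.17-fold and 1.07-fold with intervals that include no difference. Eomes pointed in opposite directions, 0.655-fold in PEP-WT and 1.28-fold in PEP-619WW, the latter within counting error.

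**Figure D3:**
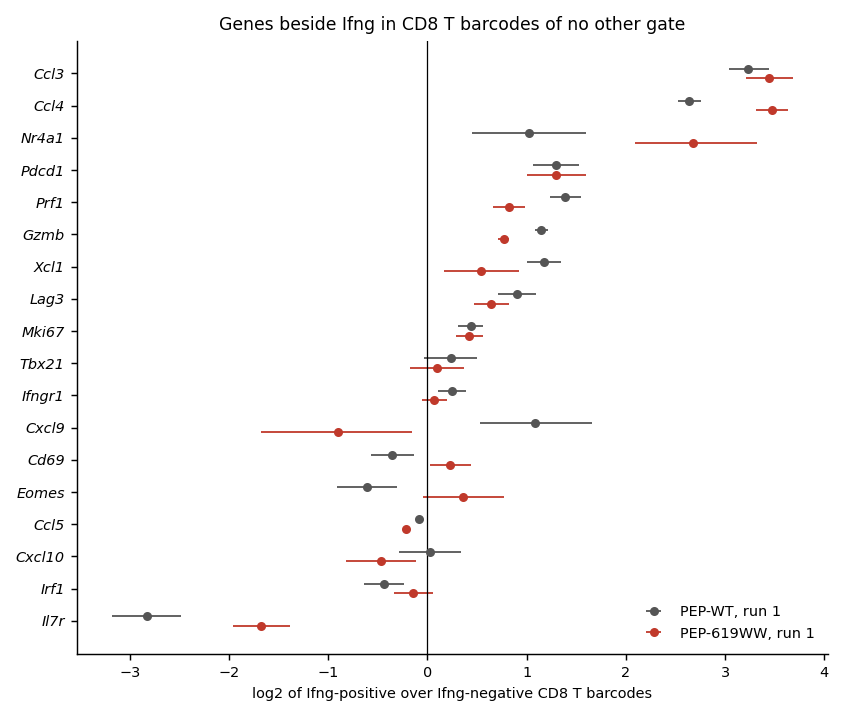
Genes in Ifng-positive over Ifng-negative CD8 T barcodes of run 1 that met no other gate (log2 of the CPM ratio, bars are 95% intervals for counting error only), both genotypes. Ccl3 and Ccl4 stand highest and Il7r lowest in both.

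The other members had no common direction between the same barcodes. Ifngr1 stood at 228 CPM in positive and 192 CPM in negative PEP-WT barcodes and at 290 and 276 CPM in PEP-619WW, and Irf1 at 98.1 and 133 CPM in PEP-WT, 1.35-fold higher in negative barcodes, and 112 and 124 CPM in PEP-619WW, within counting error. Cxcl9, from 120 and 64 UMIs, was 2.12-fold higher in positive barcodes of PEP-WT and 1.87-fold higher in negative barcodes of PEP-619WW. Cxcl10 stood at 45.7 and 44.9 CPM in PEP-WT and 31.5 and 43.6 CPM in PEP-619WW. Ifngr2 had 8 and 27 UMIs in PEP-WT and 10 and 15 in PEP-619WW. In run 2 PEP-619WW, with 50 positive and 238 negative barcodes, Ccl3, Ccl4 and Gzmb were again higher in positive barcodes, by 3.73-fold, 4.15-fold and 6.34-fold.

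The 2 receptor chains had their highest levels in different gates. Ifngr1, the ligand-binding chain, had its highest level in the NK gate in 3 libraries, at 310 CPM (255 to 373) in run 1 PEP-WT, 584 CPM (485 to 697) in run 1 PEP-619WW and 674 CPM (639 to 709) in run 2 PEP-619WW. The CD8 T gate followed in run 1 at 183 and 241 CPM, and the B gate was lowest at 60.02 and 64.4 CPM. In run 2 PEP-619WW the CD4 T gate stood at 423 CPM and the B gate at 240 CPM. Ifngr1 was thus lowest in B cells of run 1 but detected in every gate of every library.

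Ifngr2, the accessory chain, was low in the gates that held Ifng. The NK gate held 3 Ifngr2 UMIs in 77 PEP-WT barcodes and 0 in 37 PEP-619WW barcodes of run 1. For that 0, 3 UMIs would be 14.4 CPM and the exact interval reaches 17.6 CPM. NK barcodes of no other gate held 0 UMIs in 67 and 0 in 33 barcodes, and 17 UMIs in 415 barcodes (10.3 CPM) in run 2 PEP-619WW. CD8 T barcodes of no other gate held 4.60 CPM in PEP-WT and 3.31 CPM in PEP-619WW of run 1, with a UMI in 3.05% and 2.88% of them. Monocyte or macrophage barcodes of no other gate held 84.2 and 66.1 CPM in run 1 and 96.6 and 124 CPM in run 2, with a UMI in 38.4% to 50.5% of barcodes. B barcodes of no other gate lay between, at 32.3 and 25.4 CPM in run 1. Over the 6 gates and 2 genotypes (12 points in each run, which share libraries and barcodes of several gates), log2 levels of Ifng and Ifngr2 had Pearson r of -0.75 in run 1 and -0.84 in run 2, given as a description. In run 2, 4 of those points are the PEP-WT lymphocyte gates of 28 barcodes or fewer, and over the other 8 points r was -0.93.

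The chemokine genes Cxcl9 and Cxcl10 were highest in the monocyte or macrophage gate of run 1. Cxcl9 counted 348 CPM (339 to 358) in PEP-WT and 239 CPM (231 to 248) in PEP-619WW, and Cxcl10 359 CPM (350 to 369) and 267 CPM (258 to 276). The neutrophil gate came second, at 199 and 117 CPM of Cxcl9 and 275 and 170 CPM of Cxcl10, while NK barcodes held 2 and 1 UMIs of Cxcl9. Of the neutrophil gate UMIs, 95.6% and 97.2% for Cxcl9 and 89.8% and 89.1% for Cxcl10 lay in barcodes of several gates. In the CD8 T gate Cxcl9 stood at 77.2 and 44.7 CPM, but 88.8% and 88.6% of these UMIs lay in barcodes that met another gate as well. Chemokine UMIs in the T and neutrophil gates are therefore not a reading of T cells or neutrophils alone.

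Cxcl9 was carried by few barcodes. Among monocyte or macrophage barcodes of no other gate, 38.6% held it in run 1 PEP-WT, 36.7% in run 1 PEP-619WW and 18.1% and 4.53% in run 2. After thinning to 1000 UMIs the shares were 18.4%, 15.6%, 8.02% and 2.11%. Those with at least 10 UMIs numbered 81 of 770, 50 of 518, 310 of 6306 and 45 of 4329, and they held 74.2% to 80.6% of the gene's UMIs in each library.

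The same barcodes tended to hold both chemokines. In these barcodes thinned to 1000 UMIs, Cxcl10 was found in 45.6% (37.0 to 54.3) of Cxcl9-positive and 15.9% (13.1 to 19.1) of Cxcl9-negative barcodes in run 1 PEP-WT. The shares were 27.8% and 13.8% in run 1 PEP-619WW, 14.5% and 2.6% in run 2 PEP-WT and 28.4% and 4.0% in run 2 PEP-619WW. In all 4 libraries the share was higher among Cxcl9-positive barcodes and the intervals did not overlap. For Irf1 in place of Cxcl10 this was so in run 2 alone, with 9.0% and 2.4% in PEP-WT and 21.6% and 6.4% in PEP-619WW, while in run 1 PEP-WT the shares were 30.9% and 25.9%.

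Irf1 was the most widely spread of the targets. In run 1 it was highest in the neutrophil gate, at 382 CPM (366 to 398) in PEP-WT and 292 CPM (278 to 306) in PEP-619WW. Next was the monocyte or macrophage gate at 268 and 234 CPM. Barcodes of several gates held 81.7% and 83.2% of the UMIs of the former and 58.7% and 61.3% of the latter. The lymphoid gates lay between 114 and 190 CPM. B barcodes of no other gate carried 33.3% and 25.1% of all Irf1 UMIs. In run 2 the neutrophil gate held 45.05 and 134 CPM and the monocyte or macrophage gate 33.8 and 74.0 CPM, all below the same gates in run 1.

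Between genotypes, the whole T gates of run 1 showed more Ifng and Ifngr1 and less Ifngr2 and Cxcl9 in PEP-619WW. In the CD8 T gate Ifng counted 2636 UMIs in PEP-WT and 3006 in PEP-619WW, and log2 of PEP-619WW over PEP-WT was 0.33 (0.26 to 0.41), or 0.50 (0.40 to 0.59) in barcodes of no other gate. Ifngr1 differed by 0.40 (0.32 to 0.47) there, from 183 to 241 CPM. Ifngr2 differed by -0.88 (-1.21 to -0.56), from 17.6 to 9.55 CPM, but its value in barcodes of no other gate was -0.47 (-1.28 to 0.31), within counting error. Cxcl9 differed by -0.79 (-0.94 to -0.64) and Cxcl10 by -0.63 (-0.76 to -0.50), and in barcodes of no other gate by -0.90 and -0.31 (-0.55 to -0.08).

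These sizes were read against all genes. A gene was counted as past the fold where its CPM ratio was at least 1.5 in either direction with at least 50 UMIs in both libraries together. In the CD8 T gate 3.91% of genes were higher and 4.69% lower in PEP-619WW by this measure; 3 of 6 members were lower (Ifngr2, Cxcl9, Cxcl10) and none higher. In barcodes of no other gate Cxcl9 was the one of these 3 still past 1.5-fold. Ifng and Ifngr1 stayed under 1.5-fold, with 88.3% and 91.5% of genes below them. Marker lists named for other cells were also summed in this gate, PEP-WT first and PEP-619WW second. They gave 1849 and 1597 CPM for B cells, 2398 and 1867 CPM for NK cells and 40.7 and 18.0 CPM for dendritic cells. Monocytes or macrophages had 2458 and 2598 CPM, neutrophils 362 and 278 CPM, plasma cells 3007 and 4468 CPM and erythroid cells 1100 and 229 CPM. In PEP-WT, Nkg7 gave 1302 CPM of the NK sum and Ly6c2 1938 CPM of the monocyte or macrophage sum. In CD8 T barcodes of no other gate the NK list stood higher, at 3079 and 2432 CPM, and the monocyte or macrophage list at 2210 and 2318 CPM. These 2 sums are therefore not a reading of other cells alone. Within the B list Cr2 went from 15.6 to 1.75 CPM and Fcer2a from 4.47 to 0.955 CPM. The part of these markers in the lower Cxcl9, Cxcl10 and Ifngr2 was not tested. Without the 5% deepest barcodes the Cxcl9 difference had the other sign, 0.24.

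In the CD4 T gate Ifng counted 347 and 414 UMIs, a log2 difference of 0.50 (0.29 to 0.71), but in CD4 T barcodes of no other gate the value was -0.11 (-0.40 to 0.18), so no difference was detectable there, and without the 5% deepest barcodes it was -0.65. Ifngr1 was higher in both readings, by 0.42 and by 0.55 (0.20 to 0.91). Ifngr2 (68 and 32 UMIs) and Cxcl9 (246 and 112 UMIs) were past 1.5-fold lower, 2 of 6 members against 6.66% of genes lower and 6.38% higher. For Cxcl9, 97.2% and 94.6% of those UMIs lay in barcodes of several gates. In CD4 T barcodes of no other gate Ifngr2 (-0.89, -2.35 to 0.46) and Cxcl9 (-0.31, -2.15 to 1.49) were within counting error, and Cxcl10 went from -0.15 in the whole gate to 0.43 (0.05 to 0.80).

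In the NK gate, with 77 and 37 barcodes, Ifng counted 42 and 19 UMIs with a log2 difference of -0.37 (-1.23 to 0.45), within counting error. Ifngr1 counted 111 and 122 UMIs, or 310 and 584 CPM, a log2 difference of 0.91 (0.53 to 1.30), or 0.73 (0.31 to 1.15) in NK barcodes of no other gate. In the whole NK gate neutrophil markers summed to 64.1 and 1770 CPM and erythroid markers to 7550 and 182 CPM, and their part was not tested. In the whole B gate no member passed 1.5-fold, where 5.52% of genes were higher and 3.95% lower. Irf1 was the member with most UMIs there, at 154 and 132 CPM, a difference of -0.22 (-0.29 to -0.16). In B barcodes of no other gate, Cxcl10 was past 1.5-fold lower in PEP-619WW, 20.9 and 8.28 CPM (-1.33, -1.62 to -1.06). There Cxcl9 had the other sign from the whole gate, 9.63 and 12.5 CPM (0.37, 0.10 to 0.64), and so had Ifngr1, 44.3 and 35.8 CPM (-0.31, -0.45 to -0.16). In these barcodes erythroid markers summed to 2944 and 297 CPM and plasma cell markers to 3743 and 5849 CPM, and in the whole gate the B cell gene Cr2 stood at 137 and 38.7 CPM, with a part that was not tested.

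In the monocyte or macrophage gate of run 1, Cxcl9 counted 5433 UMIs in PEP-WT and 3160 in PEP-619WW, a log2 difference of -0.54 (-0.60 to -0.48), and Cxcl10 5599 and 3524 UMIs, a difference of -0.43 (-0.49 to -0.37). Ifngr2 differed by -0.39, from 69.3 to 53.0 CPM, Irf1 by -0.19, and Ifngr1 by 0.26, from 158 to 189 CPM. No member reached 1.5-fold, against 3.75% of genes higher and 5.14% lower. In this gate neutrophil markers summed to 3907 and 7317 CPM, B cell markers to 1173 and 1657 CPM and erythroid markers to 1333 and 559 CPM, and their part was not tested. In the neutrophil gate Cxcl9 (1100 and 641 UMIs, -0.77) and Cxcl10 (1518 and 929 UMIs, -0.70) passed 1.5-fold lower, 2 of 6 members against 9.55% of genes lower and 3.88% higher. Irf1 differed there by -0.39 (-0.48 to -0.29) and Ifngr2 by -0.57.

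Over the 5 gates of run 1 with at least 100 barcodes in both libraries, 23 of 30 pairs of member and gate were lower in PEP-619WW and 7 higher, and 24 kept their sign in barcodes of 1 gate. These pairs share barcodes, and of all genes tested 47.9% (B) to 63.8% (neutrophil) were lower in the same gates. In neutrophil barcodes of no other gate (218 and 255) the differences were -1.77 for Cxcl9, from 48 and 18 UMIs, -0.97 for Cxcl10 and -0.88 for Irf1, while Ifng, from 3 and 20 UMIs, had the other sign (2.38). The neutrophil gate was also taken without barcodes of the T, NK and B gates, a reading added after its values were seen. Cxcl9 was then 213 and 125 CPM (-0.76), Cxcl10 316 and 183 CPM (-0.79) and Irf1 456 and 347 CPM (-0.39), close to the differences of the whole neutrophil gate. Barcodes shared with the monocyte or macrophage gate were kept, so these values are not a reading of neutrophils alone. In this reading Ifng, from 9 and 37 UMIs, differed by 1.94, against -0.25 in the whole gate. B cell markers summed there to 1085 and 2320 CPM. Neutrophil markers summed to 12012 CPM in the PEP-WT and 19186 CPM in the PEP-619WW neutrophil gate. In that sum Retnlg went from 7526 to 13493 CPM, while the receptor genes Csf3r (381 and 231 CPM) and Cxcr2 (283 and 197 CPM) went the other way. In the same gate B cell markers summed to 1607 and 2286 CPM and plasma cell markers to 2268 and 3133 CPM. Erythroid markers summed to 1947 and 901 CPM, CD8 T markers to 438 and 261 CPM and NK markers to 494 and 288 CPM. The part of all these markers in these differences was not tested.

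**Figure D4:**
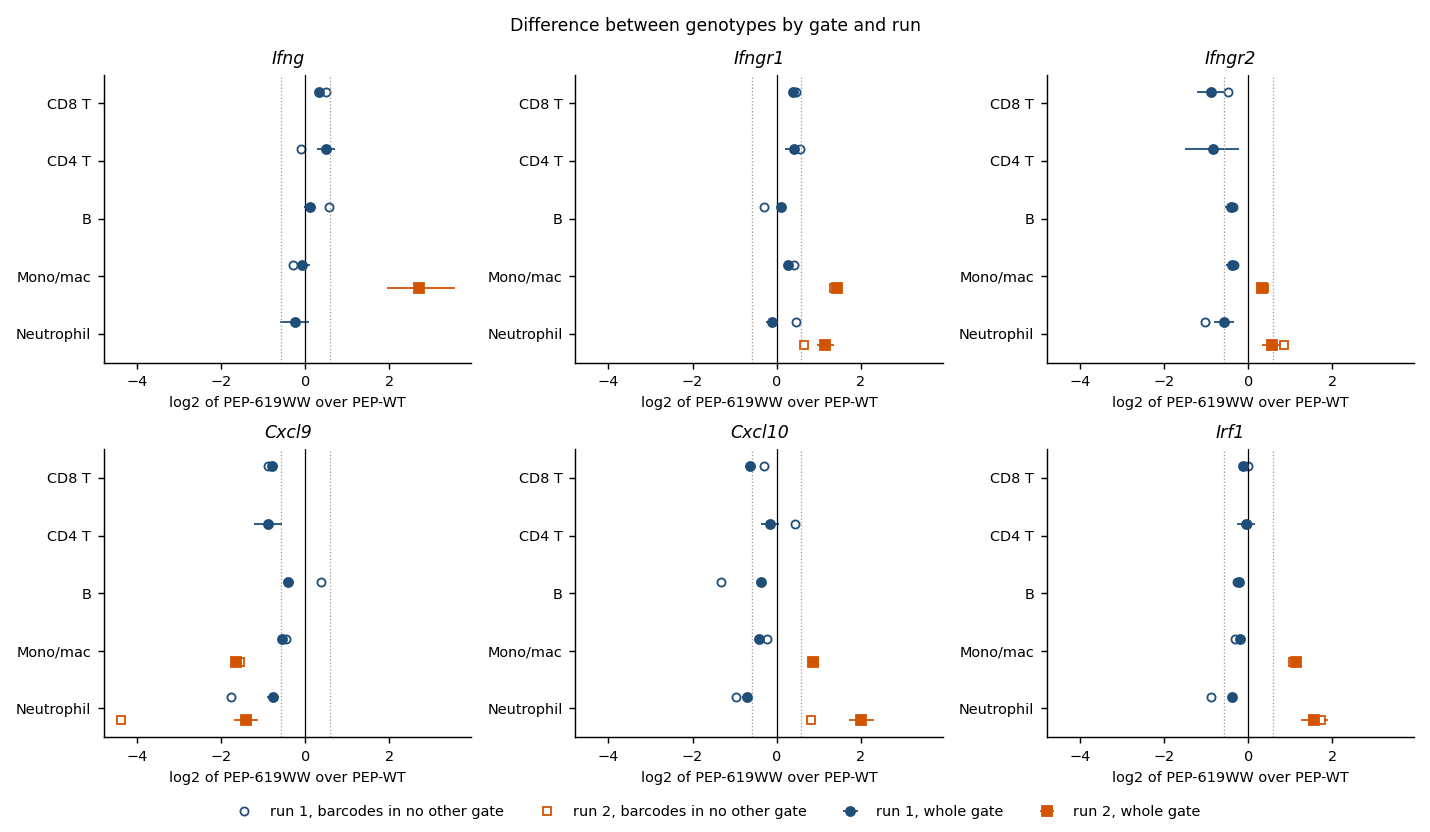
Difference between genotypes, log2 of PEP-619WW over PEP-WT, per member, gate and run (filled points, whole gates, with 95% intervals for counting error only; open points, barcodes in no other gate with at least 50 UMIs; dotted lines mark 1.5-fold). Cxcl9 lies left of 0 for whole gates in both runs, while Cxcl10, Irf1 and Ifngr2 in the myeloid gates lie left in run 1 and right in run 2.

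Run 2 allowed the same comparison in the myeloid gates alone. In its monocyte or macrophage gate Cxcl9 counted 10945 UMIs (176 CPM) in PEP-WT and 1939 UMIs (56.6 CPM) in PEP-619WW, a log2 difference of -1.64 (-1.71 to -1.57). The other targets had the other sign: Cxcl10 went from 79.2 to 145 CPM (0.87) and Irf1 from 33.8 to 74.0 CPM (1.13). Ifngr1 went from 90.2 to 245 CPM (1.44), and Ifngr2 from 96.4 to 121 CPM (0.33). Past 1.5-fold, 4 of 6 members were higher and 1 lower, but so were 23.6% and 15.1% of all genes. Markers in this gate summed to 9.52 and 123 CPM for dendritic cells, 151 and 18.3 CPM for melanocytic cells and 290 and 1.17 CPM for erythroid cells, and their part was not tested.

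The few Ifng UMIs in that gate, 18 in PEP-WT and 65 in PEP-619WW, lay beside T cell markers, whose CD8 T list summed to 8.28 and 169 CPM in the gate and whose part was not tested. In barcodes of no other gate Ifng had 4 and 6 UMIs. In the run 2 neutrophil gate Cxcl9 was again lower (114 and 43.0 CPM, -1.41), and Ifngr1 (1.15), Cxcl10 (50.8 and 204 CPM, 2.01) and Irf1 (1.57) were higher, 3 and 1 of 5 members counted against 27.5% of genes higher and 10.6% lower. In neutrophil barcodes of no other gate (420 and 709) Cxcl10 was 76.2 and 135 CPM (0.82, 0.38 to 1.28) and Cxcl9, from 83 and 8 UMIs, 117 and 5.61 CPM (-4.38, -5.64 to -3.34). Markers in the whole gate summed to 41.2 and 183 CPM for CD8 T cells, 17.3 and 259 CPM for NK cells, 23.0 and 111 CPM for dendritic cells, 117 and 2.32 CPM for erythroid cells and 4404 and 3191 CPM for monocytes or macrophages, and their part was not tested. Cxcl9 was thus the one target lower in PEP-619WW in both whole myeloid gates of both runs. These gates are not separate readings, since in run 1 554 PEP-WT and 562 PEP-619WW barcodes met both. The difference between the runs themselves was not tested.

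The monocyte or macrophage gate differed in C1qa and Ly6c2 between the 4 libraries. C1qa, a complement gene of resident macrophages, and Ly6c2, a gene of inflammatory monocytes, were used to divide the barcodes of that gate alone, a division chosen after the member values were seen. C1qa without Ly6c2 made up 5.19% and 3.86% of them in run 1 but 84.3% and 25.5% in run 2. Ly6c2 without C1qa made up 61.3% and 54.8% in run 1 and 1.44% and 27.9% in run 2. Shares of these classes thus differed between the genotypes of run 2 as well as between runs. Ly6c2 was not particular to this gate in run 1. In PEP-WT it stood at 1374 CPM in the B gate and 1938 CPM in the CD8 T gate, against 2786 CPM here. In run 2 PEP-WT it stood at 16.6 CPM here. Detection of Ly6c2 in run 1 is therefore not a reading of monocytes alone, and its part in the shares was not tested.

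In run 1 C1qa was also found outside this gate, at 68.1 CPM in the PEP-WT B gate against 315 CPM here. Its detection therefore does not name a cell type. The lower Cxcl9 of PEP-619WW was found in run 1 barcodes with C1qa detected. Those with both genes (237 and 187 barcodes) held 760 and 422 CPM of Cxcl9, a log2 difference of -0.85 (-0.96 to -0.74), and 605 and 416 CPM of Cxcl10 (-0.54). Those with C1qa alone were few, 40 and 20 barcodes, with 165 and 10 UMIs of Cxcl9. In barcodes with Ly6c2 alone (472 and 284) Cxcl9 was slightly higher in PEP-619WW, 250 and 286 CPM, a difference of 0.19 (0.04 to 0.35), and so was Cxcl10, 385 and 422 CPM (0.13, 0.01 to 0.26).

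In run 2 Cxcl9 was lower in PEP-619WW in each of these 3 classes. C1qa alone held 174 and 86.9 CPM (-1.002), both genes 459 and 51.9 CPM (-3.15), and Ly6c2 alone 117 and 36.7 CPM (-1.68, from 58 UMIs in 91 PEP-WT barcodes). Barcodes with neither gene held 64.6 and 58.6 CPM (-0.14, -0.37 to 0.09), within counting error. The Cxcl10 difference of the whole gate, 0.87, was not reached in any class: it was 0.14 (0.02 to 0.27) for C1qa alone and 0.22 (0.01 to 0.42) for neither gene, slightly higher in PEP-619WW, and -0.39 for both and -0.61 for Ly6c2 alone, lower in PEP-619WW. For C1qa alone, both genes and Ly6c2 alone in turn, Irf1 differed by 0.61, 0.08 and 0.30, the last 2 within counting error, and Ifngr1 by 0.88, 0.92 and 1.29. In barcodes with neither gene Irf1 differed by 0.87 (0.56 to 1.19) and Ifngr1 by 0.65.

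**Figure D5:**
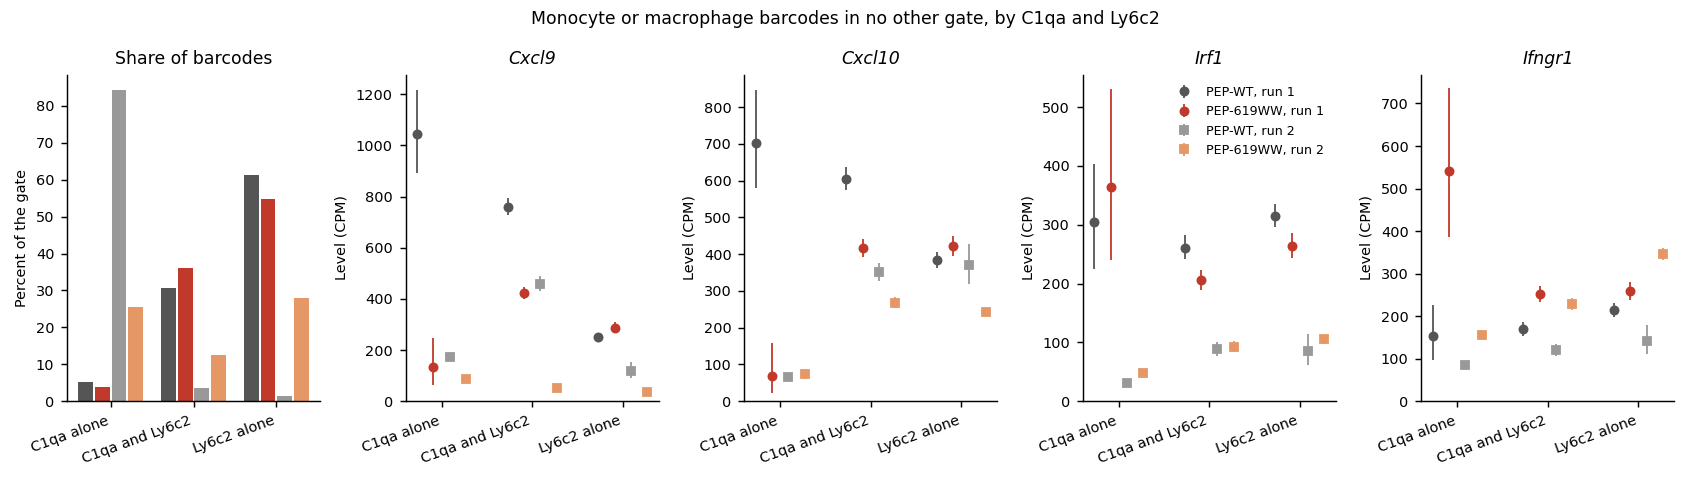
Share of barcodes (percent) and levels of Cxcl9, Cxcl10, Irf1 and Ifngr1 (CPM) in monocyte or macrophage barcodes of no other gate, divided by C1qa and Ly6c2, for the 4 libraries (lines on the points are 95% Poisson intervals for counting error only). In run 2 Cxcl9 is lower in PEP-619WW in the 3 classes with C1qa or Ly6c2, and Cxcl10 is not higher in the classes with Ly6c2.

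Other genes of the pathway were read from 4 lists. Of the IFN-γ target genes with enough UMIs, none was past 1.5-fold higher in PEP-619WW in run 1, and 4 of 25 (CD8 T), 4 of 24 (CD4 T), 1 of 26 (B), 0 of 25 (monocyte or macrophage) and 7 of 25 (neutrophil) were lower, against 4.69%, 6.66%, 3.95%, 5.14% and 9.55% of all genes. The list medians were -0.26, -0.22, -0.18, -0.21 and -0.48, against -0.01, 0.00, 0.01, -0.07 and -0.11 for all genes tested. In barcodes of no other gate they were -0.14, -0.19, -0.16, -0.093 and -0.69. In run 2 the list went the other way, with 14 of 25 higher and 2 lower in the monocyte or macrophage gate (median 0.66, all genes 0.12) and 16 of 24 higher and 1 lower in the neutrophil gate (median 0.93, all genes 0.23), where 23.6% and 27.5% of all genes were higher.

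Among target genes of the T gates, Ciita, the master regulator of MHC class II, was lower at 26.5 and 15.2 CPM in the CD8 T gate (-0.80) and 30.8 and 10.4 CPM in the CD4 T gate (-1.57). H2-Aa, an MHC class II chain, was at 561 and 365 CPM in the CD8 T gate (-0.62). Both are genes of B cells and other antigen-presenting cells, and B-lineage markers in the CD4 T gate summed to 1392 CPM in PEP-WT and 1382 CPM in PEP-619WW, with a part that was not tested. Socs1, an inhibitor of JAK signalling that is itself induced by IFN-γ, was at 61.1 and 37.8 CPM in the CD8 T gate (-0.69) and at 100.9 and 60.7 CPM in the B gate (-0.73). Of the 7 signalling genes, 0 to 2 were lower and none higher in the run 1 gates, where 3.95% to 9.55% of all genes were lower. In the run 2 myeloid gates 7 of 7 and 5 of 7 were higher, where 23.6% and 27.5% of all genes were.

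Genes that induce Ifng in lymphocytes included the 2 chains of the interleukin-18 receptor, which were higher in PEP-619WW in both T gates of run 1. Il18r1 was at 139 and 245 CPM in the CD8 T gate (0.82) and 82.0 and 208 CPM in the CD4 T gate (1.34), and Il18rap at 91.0 and 151 CPM (0.73) and 37.8 and 87.4 CPM (1.21). Il12rb2, a chain of the interleukin-12 receptor, was at 8.77 and 20.8 CPM in the CD4 T gate (1.24). Eomes, a T-box factor of effector T cells, was lower in the CD8 T gate at 40.9 and 22.3 CPM (-0.88). Of the 10 genes, 2 were higher and 1 lower in the CD8 T gate and 3 were higher and none lower in the CD4 T gate, against 3.91% and 4.69% of all genes in the former and 6.38% and 6.66% in the latter. In the B gate 3 were higher and 1 lower, in the monocyte or macrophage gate 1 and 1, and 1 of 7 was lower in the neutrophil gate, against 5.52% and 3.95%, 3.75% and 5.14%, and 9.55% lower. In run 2, 9 of 10 were higher in the monocyte or macrophage gate (median 3.47) and 4 of 4 in the neutrophil gate, against 23.6% and 27.5% of all genes. T and NK cell markers were also higher in both of these PEP-619WW gates, and their part was not tested. Over all 4 lists, Il18rap in the monocyte or macrophage gate was the one gene past 1.5-fold in the same direction in both runs, by 0.66 (29.4 and 46.4 CPM) in run 1 and 3.06 (1.58 and 13.1 CPM) in run 2. It is a gene of T and NK cells, whose markers in that gate summed to 379 and 270 CPM (CD8 T) and 424 and 258 CPM (NK) in run 1, and to 8.28 and 169 CPM and 10.6 and 155 CPM in run 2, with a part that was not tested.

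Of the other ligands and receptors, Xcl1, a chemokine of CD8 T and NK cells, stood furthest apart, with 2110 and 445 UMIs in the CD8 T gate (152 and 35.4 CPM, -2.10) and 299 and 25 UMIs in the CD4 T gate (-3.34). Il21, a T cell cytokine, was higher at 2.96 and 5.73 CPM (0.96) and 27.2 and 49.8 CPM (0.87). In this list 1 gene was higher and 5 were lower of 12 in the CD8 T gate, 3 and 1 of 8 in the CD4 T gate, and 2 and 1 of 12 in the B gate, where 3.91% and 4.69%, 6.38% and 6.66%, and 5.52% and 3.95% of all genes were. In the myeloid gates of run 1 no gene of the list was higher and 2 of 11 and 4 of 9 were lower, against 5.14% and 9.55% of all genes. In those of run 2, 8 of 12 and 3 of 6 were higher and none lower, against 23.6% and 27.5% higher. The list median in the CD8 T gate was -0.30, and 0.29 over the 8 genes with enough UMIs in barcodes of no other gate.

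Genes with the most similar pattern over gates were named by the mean Pearson r of log2(CPM + 10) in the 2 runs, among 10428 genes and with 12 points in each run, of which 4 in run 2 are the PEP-WT lymphocyte gates of 28 barcodes or fewer. The order depends on those points: without them, at most 1 of the 5 genes named for each member was again among its nearest 5. For Ifng these were Bspry (0.95), Sh2d2a (0.93), Cd226 (0.92), Lck (0.92) and Nr4a2 (0.91). For Ifngr1 they were Klrk1 (0.88), Acss2, Padi2, Gzma and Fgfr1op2, and for Ifngr2 Marcks (0.92), Tpd52, Atp6v0b, Pla2g7 and Adssl1. Klrk1 encodes the NK cell receptor NKG2D and Lck a T cell kinase. For Cxcl9 the nearest were Clec4b1 (0.87), Gm4951, 2310040G24Rik, Slamf8 and Rab7b, for Cxcl10 Tcf7l2 (0.91), Slamf8, Scarb1, Sowahc and Rab7b, and for Irf1 Ifi47 (0.92), Trafd1, H2-D1, Il17ra and Gsdmd. Cxcl9 and Cxcl10 themselves had r of 0.88 in run 1 and 0.69 in run 2, or 0.41 over the other 8 points of run 2.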

How the data were processed

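By the study's methods, single-cell RNA was sequenced from live CD45+ splenocytes of LCMV-cl13-infected PEP-WT and PEP-619WW mice, pooled by genotype, which the make-up of run 2 goes against. The authors deposited 4 tables of raw UMI counts per gene and barcode, made with Cell Ranger 6.1.1 on the mm10 reference per their methods, whereas the submitters' processing notes list Cell Ranger 6.0.0. Barcodes were used as deposited, with 55504449 to 77916082 UMIs per library, no filter and no doublet caller. UMIs of the members were summed per gate in Python 3.11.15 (numpy 2.4.6, pandas 2.3.3, scipy 1.17.1) and divided by all UMIs of the gate. Levels have exact 95% Poisson intervals, ratios exact conditional intervals, and shares Clopper-Pearson intervals, all for counting error only. The ratio was also run on simulated Poisson counts, the model that its interval assumes. Those counts lack the uneven spread of UMIs over barcodes seen here, so the simulation cannot show how the intervals hold in these data. Groups came from the genotype labels. With 1 library per genotype and run there was no test. Shares were also computed with each barcode thinned to 1000 UMIs. Where a count is 0, the level that 3 UMIs would give is printed as a guide, and it lies below the upper end of the exact Poisson interval.

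The members, gates and gene lists were chosen with earlier results of these data known. Named genes were the members, at most the 3 of each list with the largest ratio in each direction past 1.5-fold in both runs (in run 1 for the T and B gates, which run 2 could not give), and the 5 genes most similar to each member over gates. Some list genes are not reported here and were left out of the lists. Promoters came from RefSeq on GRCm38.p6, where all 6 members matched. Alternatives were other denominators, weightings, barcode filters and gates, the other run, and other fold or UMI limits.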

Additional observations from a re-analysis of the deposited data

Results flagged for a closer look

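In the monocyte or macrophage gate 3 members differed between genotypes with opposite signs in the 2 runs, a difference that was not tested. Log2 of PEP-619WW over PEP-WT was -0.39 in run 1 and 0.33 in run 2 for Ifngr2, -0.43 and 0.87 for Cxcl10, and -0.19 and 1.13 for Irf1. The neutrophil gate showed the same 3 members with opposite signs, -0.57 and 0.57 for Ifngr2, -0.70 and 2.01 for Cxcl10 and -0.39 and 1.57 for Irf1. In neutrophil barcodes of no other gate Cxcl10 was -0.97 in run 1 and 0.82 in run 2. Beside these values stand the shares of C1qa without Ly6c2 in monocyte or macrophage barcodes of no other gate, 5.19% and 3.86% in run 1 and 84.3% and 25.5% in run 2, and their part was not tested.

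Barcodes outside the main measurement also carried signal. Run 2 held 274 PEP-WT and 27 PEP-619WW barcodes with at least 3 of 6 melanocytic genes, against 0 and 0 in run 1. In barcodes of no gate with at least 2 UMIs of a dendritic cell list (Flt3, Xcr1, Clec9a, Cd209a, Siglech and Ccr7), Cxcl9 stood at 240 CPM in PEP-WT and 91.4 CPM in PEP-619WW of run 1 and at 234 and 64.3 CPM in run 2. Ccr7 was not particular to dendritic cells. In run 1 PEP-WT it stood at 48.0 CPM in the B gate and 42.0 CPM in the CD4 T gate. The monocyte or macrophage gate held 10.5 CPM of it. These barcodes are therefore not a reading of dendritic cells alone.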

How the results depend on the processing

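No paired analysis was possible because each run holds 1 library per genotype and no result comes from a test. All 41 differences kept their sign with barcodes of at least 500 genes and under 10% mitochondrial UMIs, and with a denominator without immunoglobulin, hemoglobin, mitochondrial and ribosomal genes, and all 12 of the T gates did so with fewer than 10 UMIs of Mt2. In barcodes of 1 gate 28 of the 41 differences left the counting interval and 6 had the other sign, and as UMIs per barcode 26 left it and 9 had the other sign. Without the 5% deepest barcodes 7 of the 41 had the other sign, as a mean of counts per 10000 UMIs 3, and with stricter gates 2. With run 2 in place of run 1, 12 of 18 differences had the other sign, and with run 1 in place of run 2, 8 of 11. The main differences are given next as log2 of PEP-619WW over PEP-WT, and the cause was not tested. Ifng in the CD8 T gate of run 1 was -1.49 in run 2, 0.78 per barcode, 0.52 as a mean of counts per 10000 UMIs, 0.50 in barcodes of 1 gate, 0.19 with stricter gates and 0.47 without the 5% deepest barcodes. Ifng in the CD4 T gate was -1.79, 0.72, 0.26, -0.11, 0.25 and -0.65 in the same order. The run 2 values, -1.49 and -1.79, rest on 28 and 12 PEP-WT barcodes with 48 and 10 Ifng UMIs. All 10 of the CD4 T gate lay in barcodes of several gates. In run 2 CD8 T barcodes of no other gate the value was -0.61 (-1.22 to 0.05), within counting error. Cxcl9 in the CD8 T gate was 0.24 without the deepest barcodes.

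In the monocyte or macrophage gate of run 1, run 2 in its place gave 1.44 for Ifngr1, 0.33 for Ifngr2, -1.64 for Cxcl9, 0.87 for Cxcl10 and 1.13 for Irf1. UMIs per barcode gave 0.39 for Ifngr1, -0.41 for Cxcl9, -0.30 for Cxcl10 and -0.0608 for Irf1, and the mean per 10000 UMIs 0.0316, -0.78, -0.73 and -0.35. Barcodes of 1 gate gave 0.41, -0.45, -0.24 and -0.31, and leaving out the deepest gave -0.34 for Cxcl10. C1qa without Ly6c2, chosen after seeing the data, gave 1.83 for Ifngr1, 1.41 for Ifngr2, -2.95 for Cxcl9, -3.38 for Cxcl10 and 0.26 for Irf1, and Ly6c2 without C1qa, likewise chosen, 0.19 for Cxcl9 and 0.13 for Cxcl10. In the neutrophil gate of run 1, run 2 gave 2.01 for Cxcl10, and barcodes of 1 gate gave -1.77 for Cxcl9, -0.97 for Cxcl10 and -0.88 for Irf1. In the B gate they gave -1.33 for Cxcl10, 0.37 for Cxcl9 and -0.31 for Ifngr1. Without the run 2 gates under 100 barcodes, chosen after seeing the data, Ifng and Ifngr2 had r of -0.93 over gates in run 2, and Cxcl9 and Cxcl10 0.41.

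In run 2 the same gate with run 1 in its place gave -0.0837 for Ifng, 0.26 for Ifngr1, -0.39 for Ifngr2, -0.54 for Cxcl9, -0.43 for Cxcl10 and -0.19 for Irf1, and the neutrophil gate -0.11 for Ifngr1, -0.70 for Cxcl10 and -0.39 for Irf1. UMIs per barcode gave 0.98 for Ifngr1, -0.13 for Ifngr2, -2.10 for Cxcl9, 0.41 for Cxcl10 and 0.67 for Irf1. The mean per 10000 UMIs gave 1.30 for Ifngr1 and 0.41 for Ifngr2, barcodes of 1 gate 1.36 for Ifngr1 and -1.55 for Cxcl9, stricter gates 1.01 for Cxcl10, and leaving out the deepest 0.40 for Ifngr2 and -1.77 for Cxcl9. C1qa without Ly6c2 gave 0.88 for Ifngr1, 0.22 for Ifngr2, -1.002 for Cxcl9, 0.14 for Cxcl10 and 0.61 for Irf1, and Ly6c2 without C1qa 1.29 for Ifngr1, 0.0552 for Ifngr2, -0.61 for Cxcl10 and 0.30 for Irf1.

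Run 1 was summed over the T, B and myeloid gates and run 2 over the myeloid gates alone, so their counts share no base. Genes past 1.5-fold, summed over gates, numbered 5373 in run 1 and 7742 in run 2. They were 8659 in run 1 with at least 20 UMIs, 2195 and 5013 with at least 200 UMIs, and 1298 and 3745 at a fold of 2. Depth limits the NK gate of run 1 and every lymphocyte gate of run 2 PEP-WT most, where a member could be at 0 for lack of barcodes.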

Other observations

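The ungated barcodes with the dendritic cell list, numbered 232 in PEP-WT and 118 in PEP-619WW of run 1 and 131 and 1051 in run 2. Cxcl9 was found in 38 and 16 of them in run 1 and in 21 and 36 in run 2. Cxcl10 stood at 67.8 and 14.2 CPM in run 1, from 79 and 9 UMIs, and at 38.9 and 31.2 CPM in run 2. Irf1 differed little between these libraries, at 164 and 159 CPM in run 1 and 173 and 157 CPM in run 2. Ifngr1 stood at 103 and 121 CPM in run 1 and 101.1 and 133 CPM in run 2, and Ifngr2 at 36.9 and 29.96 CPM in run 1 and 85.5 and 89.9 CPM in run 2. The Cxcl10 intervals of run 2, 27.1 to 54.1 and 27.1 to 35.7 CPM, overlap, and those of run 1, 53.7 to 84.5 and 6.49 to 26.9 CPM, do not.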
